A study of Mus musculus with 4 samples.

Results

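A group of 4 genes of the basal keratinocyte layer and of epithelial stem cells, Krt15, 1600029D21Rik (now Plet1), Itgb4 and Plec1 (now Plec), were followed in the distal and proximal nail matrix of the mouse. They were taken by gene symbol from the authors' list of probe sets (sets of array oligonucleotides that together measure a transcript) with a fold change between the matrix regions, and each had 1 probe set there. They are 4 of the 1133 genes that could be named, and their probe sets are 4 of the 1435 listed and of the 45037 measured. The list was made from these same arrays at a fold cut-off of 1.99. The 4 genes were thus chosen by their distal against proximal values on these arrays, and those values are given as a description with no test.

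The nail plate grows from the nail matrix, an epithelium under the proximal nail fold in which cells divide, flatten and keratinise. Distal matrix (2 arrays) and proximal matrix (2 arrays) were microdissected from mice aged 8 weeks, both regions labelled as intact, and their total RNA was measured on Affymetrix arrays. The labels used here give no strain, sex, genotype or treatment for either region. They number the arrays within a region but do not say whether they came from separate animals or pools, so the spread between arrays may be technical. In bulk tissue, fewer cells of a type and less RNA per cell cannot be told apart.

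Basal keratinocytes sit on the basement membrane and are held there by hemidesmosomes. In these junctions the integrin of alpha 6 and beta 4 chains, whose beta chain is encoded by Itgb4, binds laminin outside the cell. Inside the cell plectin, the product of Plec1, ties the integrin to the keratin filaments. Krt15 encodes a type I keratin of basal cells and is a marker of bulge stem cells in the hair follicle. Plet1 encodes a surface protein of placental and epithelial progenitors that is known from the upper hair follicle.

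All 4 genes had lower mean log2 intensities in the distal matrix, but they were not alike on single arrays. Krt15 was clearly separated between the regions on the deposited scale, 1600029D21Rik and Plec1 were separated by small gaps, and Itgb4 was not separated. For 3 of the 4 both proximal arrays lay above both distal arrays, which was so for 18.3% of all probe sets and for 78.7% of the 1010 probe sets that the authors listed as higher in the proximal matrix. With the listing made on this contrast, nothing is read from that count. The highest intensity among 27 control probe sets for Bacillus subtilis genes, used as a measure of background, was 58.0 and 81.0 in distal matrix, against 96.8 and 45.4 in proximal matrix.

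Krt15 (Entrez gene 16665) had intensities of 612 and 907 in distal matrix, against 2306 and 2372 in proximal matrix. The groups did not overlap, and the lowest proximal value was 2.54 times the highest distal value. Within a region the arrays differed by 1.48-fold in the distal and by 1.03-fold in the proximal matrix, so each of the 4 distal to proximal pairs differed by more than either pair of replicates. All 4 intensities were at least 10.6 times the highest Bacillus control of their own array.

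The log2 difference of Krt15, distal minus proximal, was -1.65 ± 0.33 (SE from limma, n = 2 arrays per region), a level 3.14-fold lower in the distal matrix. Here and below this SE is moderated. It rests more on probe sets of like intensity (25.98 degrees of freedom) than on the arrays of the gene itself (2). The mean log2 intensity was 9.54 ± 0.40 in the distal and 11.19 ± 0.03 in the proximal matrix (SD, n = 2 each). Leaving out each array in turn moved the difference between -1.93 and -1.37. In the authors' deposited table the difference was -1.73, which placed Krt15 at rank 127 by fold among the 1010 probe sets listed as higher in the proximal matrix.

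1600029D21Rik (Plet1, Entrez gene 76509) had intensities of 197 and 59.2 in distal matrix, against 237 and 309 in proximal matrix. The groups did not overlap, but distal replicate 1 was close to proximal replicate 1, which was 1.20 times as bright. The distal arrays differed from each other by 3.33-fold, more than the 2.51-fold difference between the regional means. On distal replicate 2 the probe set was at 0.73 times the highest Bacillus control of that array, so only 1 of the 2 distal arrays had it above this background.

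The log2 difference of 1600029D21Rik was -1.33 ± 0.71 (SE, n = 2 arrays per region). Leaving out distal replicate 2 gave -0.46 and leaving out distal replicate 1 gave -2.19. In the authors' deposited table the difference was larger, at -1.72, next to that of Krt15, with a rank of 129 among the 1010. With values at or below the highest Bacillus control raised to it, an alternative added after the data were seen, the difference was -1.10. Of all probe sets, 1696 (3.77%) were at or below that control on distal replicate 2 alone.

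Of the 4 genes, Plet1 was the 1 with an entry in the RefSeq promoter table (assembly GRCm38.p6). The 250 bases before its start are shown because they match the letter patterns searched for 3 common promoter motifs. The window lies at chr9:50494275-50494524 on the plus strand. Capitals mark, from 5′ to 3′, a CCAAT box read on the opposite strand, a match to the pattern searched for AP-1, and a TATA box. That AP-1 pattern, TGANTCA, allows any base at its centre, here T, so a match need not be an AP-1 site.
Plet1 promoter: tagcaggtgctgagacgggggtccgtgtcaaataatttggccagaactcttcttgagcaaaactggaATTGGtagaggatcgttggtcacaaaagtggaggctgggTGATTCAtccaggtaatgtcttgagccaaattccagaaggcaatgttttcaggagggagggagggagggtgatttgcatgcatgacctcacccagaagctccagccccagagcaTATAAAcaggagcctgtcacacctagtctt
In all, 5 motifs were searched on both strands, and none overlapped another in this window. TATAAA began 30 bases before the start and occurs in 12.4% of 32851 windows of the same length. The match to TGANTCA began 144 bases before the start, and this loose pattern, with any centre base, occurs in 6.7% of windows. CCAAT began 183 bases before the start and occurs in 33.8%. The letters GGGCGG (GC box, in 32.7% of windows) and CTTTGAT (TCF/LEF, in 3.2%) were not in this window.

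**Figure D1:**
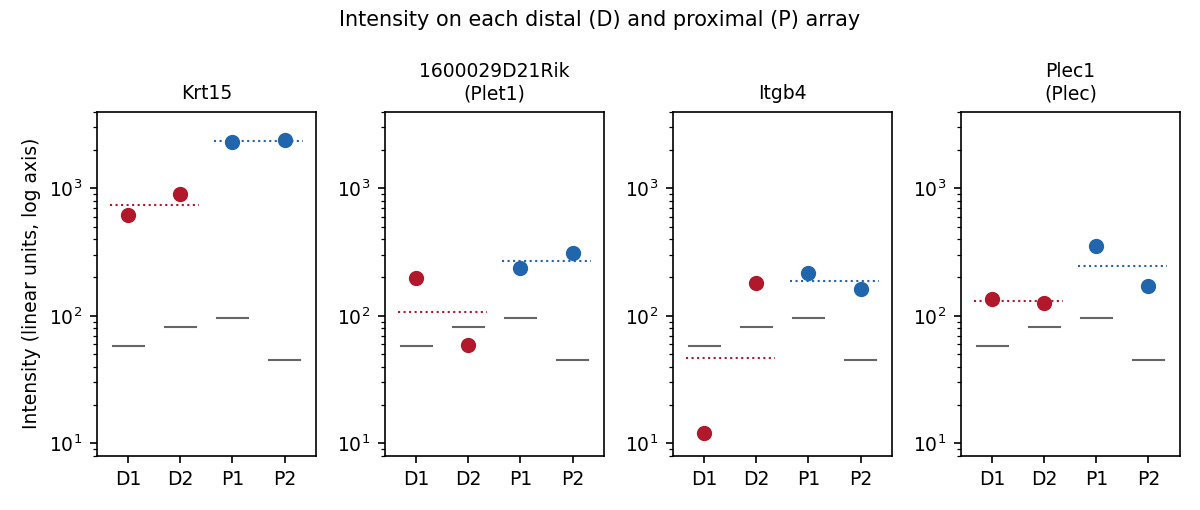
Intensity of each probe set (linear units on a log axis) on distal replicates 1 and 2 (D1, D2, red) and proximal replicates 1 and 2 (P1, P2, blue); dotted lines are the regional means of log2 intensity and grey bars the highest Bacillus subtilis control of each array. Krt15 stands far above the controls on all arrays, while 1600029D21Rik on D2 (59.2) and Itgb4 on D1 (12.1) lie below them.

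Itgb4 (Entrez gene 192897) had intensities of 12.1 and 182 in distal matrix, against 216 and 163 in proximal matrix. Distal replicate 2 lay between the proximal arrays, so the groups overlapped, and proximal was the higher in 3 of the 4 pairs of arrays. Distal replicate 1 was the low one, at 0.21 times the highest Bacillus control of that array. The distal arrays differed by 15.1-fold and the proximal arrays by 1.32-fold.

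The log2 difference of Itgb4 was -2.0 ± 1.03 (SE, n = 2 arrays per region), and it came from 1 array whose value was not above background. Raised to the highest Bacillus control of that array, the value gives a difference of -0.87. Without distal replicate 1 it was -0.04, and without distal replicate 2 it was -3.95. The observed SD of Itgb4 within regions was 1.97 on the log2 scale, against 0.92 for probe sets of its intensity in the limma variance trend. The SE of 1.03 is drawn mostly from that trend and understates the spread of the Itgb4 values themselves. The authors' deposited table has a smaller difference of -1.40 and a rank of 325 among the 1010. Over all probe sets, 739 (1.64%) were at or below the highest Bacillus control on distal replicate 1 alone.

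Plec1 (Plec, Entrez gene 18810) had intensities of 134 and 127 in distal matrix, against 353 and 172 in proximal matrix. The groups did not overlap. Here the distal arrays were the alike ones, differing by 1.06-fold, and the proximal arrays differed by 2.05-fold, more than the 1.89-fold difference between the regional means. All 4 values were above the highest Bacillus control of their array, by 1.56 to 3.79 times.

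The log2 difference of Plec1 was -0.92 ± 0.67 (SE, n = 2 arrays per region). Leaving out proximal replicate 1 gave -0.40 and leaving out proximal replicate 2 gave -1.44. In the authors' deposited table the difference was -1.06, a fold of 2.09, which is the nearest of the 4 genes to the cut-off of 1.99 and ranks at 823 among the 1010. Values just outside the cut-off carry no gene name here.

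**Figure D2:**
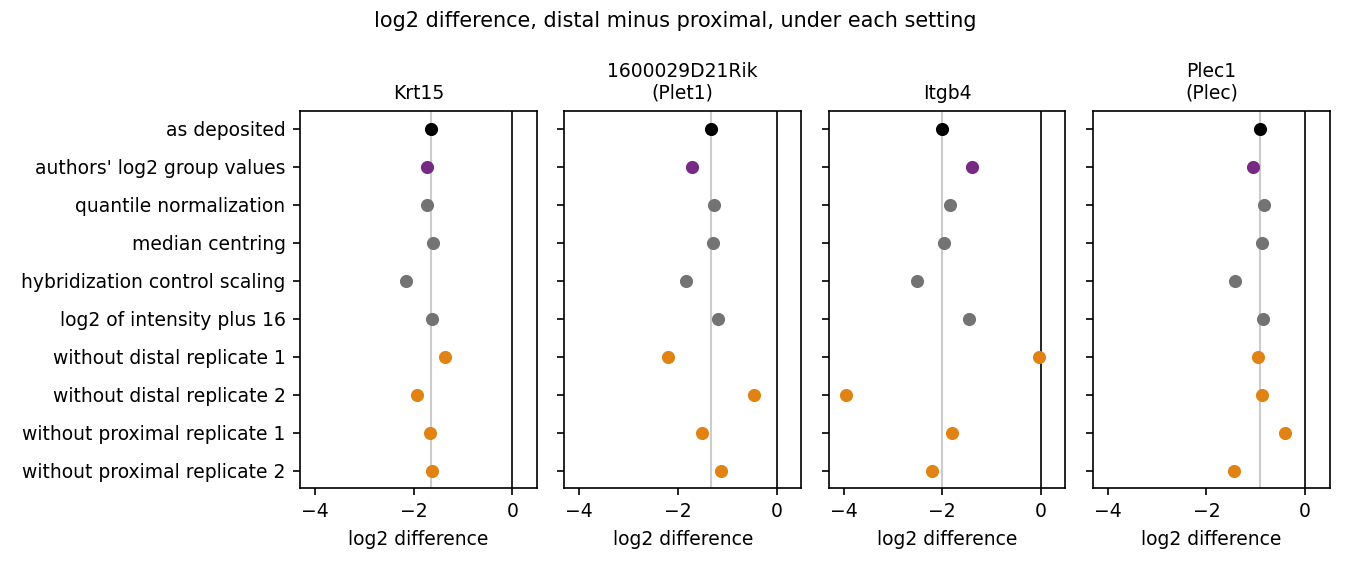
log2 difference, distal minus proximal, of each probe set on the deposited scale (black), in the authors' deposited table (purple), under other scalings or offsets (grey) and with 1 array left out (orange). Krt15 stayed between -2.16 and -1.37, while Itgb4 was at -0.04 and 1600029D21Rik at -0.46 when the distal array with the low value was left out.

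The scaling of the arrays bears on which genes overlapped. The spiked hybridization controls, which are added in equal amounts to each sample, had geometric mean intensities of 56627 and 73043 on the distal arrays, 59860 on proximal replicate 1 and 34058 on proximal replicate 2, the dimmest. Scaling to them moved the median difference of all probe sets to -0.57, against -0.06 on the deposited scale. Relative to that median Krt15 was at -1.60, 1600029D21Rik at -1.27, Itgb4 at -1.94 and Plec1 at -0.86 on either scale.

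After that scaling both proximal arrays lay above both distal arrays for all 4 genes, and so they did for 28.3% of all probe sets. Itgb4 then had 11.5 and 134 in distal matrix, against 194 and 258 in proximal matrix. Median centring also separated Itgb4, by a narrow margin of 179 on distal replicate 2 to 184 on proximal replicate 1. The same step made 1600029D21Rik overlap, with 207 and 58.0 in distal matrix, against 202 and 353 in proximal matrix. Thus 3 of the 4 did not overlap under median centring (17.0% of all probe sets) and under quantile normalization (17.5%). Krt15 and Plec1 did not overlap on any of the 4 scales, and the mean difference was below 0 for all 4 genes on each.

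The 4 genes did not share a pattern over single arrays. On the deposited scale, among the distal arrays replicate 1 was the lower for Krt15 and Itgb4 and replicate 2 for 1600029D21Rik and Plec1. Among the proximal arrays replicate 1 was the higher for Itgb4 and Plec1 and replicate 2 for 1600029D21Rik and Krt15. The proximal order turned for Krt15 under quantile normalization, and for Itgb4 under median centring and hybridization control scaling. With log2 intensities centred on each gene's mean, the closest pair was Krt15 and Plec1, at a Euclidean distance of 1.15 over the 4 arrays. The most distant pair was 1600029D21Rik and Itgb4, at 4.09, which had their low values on different distal arrays.

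Each of the 4 had other listed genes closer to it than any of its partners. These were the nearest of far more candidates than it had partners, which alone makes a closer gene likely. The contrast therefore cannot show whether the 4 are alike. Among 1076 genes with a single symbol in the authors' list and a mean above the median of all probe sets, the nearest to Krt15 were E230008O15Rik (distance 0.14), E030016H06Rik (0.21) and Rps6kb1 (0.22), the last a kinase gene of the mTOR pathway. The nearest to 1600029D21Rik were Eif4a3 (0.10), a gene of the exon junction complex, ORF19 (now Washc1, 0.11) and Pfas (0.26), a gene of purine synthesis. For Plec1 they were Xpot (0.22), Agfg1 (0.27) and Yes1 (0.31), which encode a tRNA exporter, a trafficking protein and a Src family kinase. These distances are over 4 arrays that also chose the genes, and they say nothing of shared control.

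Itgb4 had more distant neighbours, Dnajc5 (0.42), Spg20 (0.44) and Areg (0.52). All 3 were low on the same array as Itgb4, with 11.4, 5.5 and 10.1 on distal replicate 1. Their choice by nearness to Itgb4 brings this about, so it is no result about these genes. The 3 values were below the highest Bacillus control of that array, 58.0. Areg encodes amphiregulin, a ligand of the EGF receptor made by keratinocytes. Its other values were 91.8 on distal replicate 2 and 141 and 111 on the proximal arrays.

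**Figure D3:**
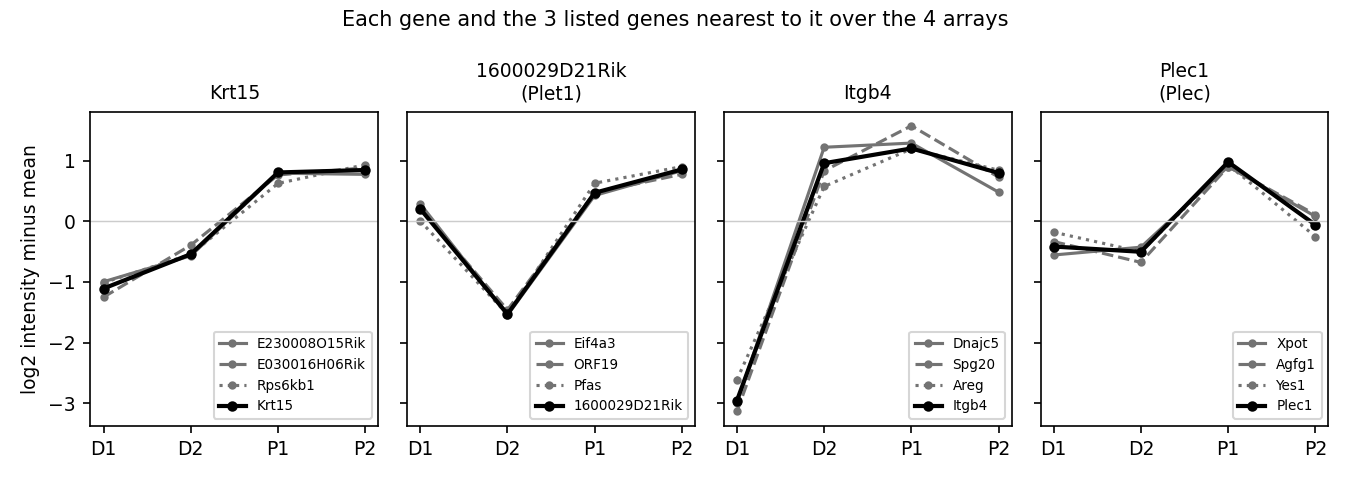
log2 intensity minus the mean over the 4 arrays for each gene (black) and the 3 listed genes nearest to it (grey), on distal (D1, D2) and proximal (P1, P2) arrays. The step between regions of Krt15, the low D2 of 1600029D21Rik, the low D1 of Itgb4 and the high P1 of Plec1 give a different outline in each panel.

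Other genes of the basal layer and hemidesmosome, of skin stem cells and of plakins and desmosomes could be named only where the authors had listed them. Of 53 genes in these lists 8 were listed, the 4 above and Id2, Tnfrsf19, Bmpr1a and Dsg2. The hemidesmosome partners Itga6, Col17a1, Dst and Cd151 and the basal keratin genes Krt5 and Krt14 carry no name here and were not analysed. The mean log2 intensities of all 8 were lower in the distal matrix, as were those of 70.7% of the 1435 listed and 52.0% of all probe sets. The median log2 difference was -1.29 over the 8, or -1.18 over the other 4. The median was -1.39 over the 1010 probe sets that the authors listed in this direction, -1.02 over all 1435 listed and -0.06 over all 45037.

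Id2, which encodes an inhibitor of basic helix-loop-helix transcription factors, had intensities of 336 and 343 in distal matrix, against 571 and 942 in proximal matrix. Tnfrsf19, a TNF receptor family gene that marks stem cells of the hair follicle, had 111 and 169 in distal matrix, against 372 and 286 in proximal matrix. Bmpr1a, a type I receptor gene for BMP ligands, had 191 and 164 in distal matrix, against 394 and 341 in proximal matrix. In none of these 3 genes did the groups overlap. Nothing is read from this, nor from the same in Dsg2 below. Among the 1010 probe sets listed as higher in the proximal matrix it was so for 78.7%, and among all probe sets for 18.3%.

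Dsg2, a desmosomal cadherin gene, had 116 and 112 in distal matrix, against 215 and 376 in proximal matrix, also without overlap. The log2 differences were -1.11 ± 0.45 for Id2, -1.25 ± 0.62 for Tnfrsf19, -1.05 ± 0.57 for Bmpr1a and -1.32 ± 0.66 for Dsg2 (SE, n = 2 arrays per region). None of these 4 passed (limma, Benjamini-Hochberg adjusted p = 0.905 for each). Their distal replicates were within 1.53-fold of each other, closer than those of 1600029D21Rik and Itgb4.

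Of these 4 genes, 0 passed at an adjusted p under 0.05, and 0 also passed under each alternative fit with no array left out. An unadjusted p under 0.05 (limma) was found for 1 of them, and for 2294 of all 45037 probe sets. With the 4 listed for their fold on this same contrast, nothing is read from that 1. Over all probe sets limma called 0.0133% as lower and 0.0533% as higher in the distal matrix, together 0.0666%. No call is given for Krt15, 1600029D21Rik, Itgb4 and Plec1.

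**Figure D4:**
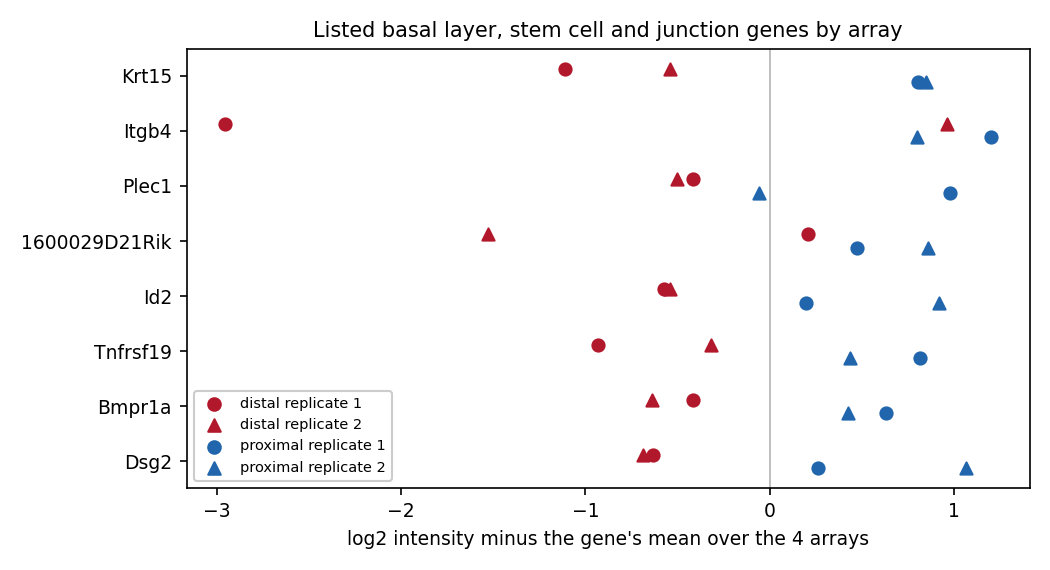
log2 intensity minus the gene's mean over the 4 arrays for the 8 listed genes of the basal layer, stem cell and junction lists, with distal arrays in red, proximal arrays in blue, circles for replicate 1 and triangles for replicate 2. Red and blue are apart for 7 genes, and for Itgb4 the triangle of distal replicate 2 lies among the blue points. All 8 come from the authors' list, so nothing is read from that count. Both proximal arrays lay above both distal arrays for 78.7% of the probe sets listed as higher in the proximal matrix and for 18.3% of all probe sets.

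Markers of other layers and cells were examined beside the basal genes. Of 11 suprabasal genes 3 were listed, and they did not go one way. Krt1, a keratin of the first suprabasal cells, had 5942 and 5742 in distal matrix, against 2495 and 2459 in proximal matrix, and was higher in the distal matrix by a log2 difference of 1.24 ± 0.24 (limma, adjusted p = 0.0429). That call ended in 8 of 11 alternatives, with limma adjusted p from 0.0843 with an offset of 16 to 1 without proximal replicate 1, among them the other scalings and the fit without proximal replicate 2 (0.97).

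Krt2, a keratin of upper epidermal layers, had intensities of 230 and 742 in distal matrix, against 1292 and 2172 in proximal matrix. Lor, the gene of the cornified envelope protein loricrin, had 58.7 and 4.2 in distal matrix, against 331 and 239 in proximal matrix. Like 1600029D21Rik, both had distal replicates more than 3-fold apart, and neither passed (limma, adjusted p = 0.0943 for Krt2 and 0.444 for Lor). For Lor the value of 4.2 lay below the highest Bacillus control of its array (81.0), and 58.7 was level with that of its own (58.0). The size of the Lor difference thus rests on distal values at or below background. The log2 differences of Krt2 and Lor, -2.02 and -4.16, were -1.17 and -6.07 without distal replicate 1. Without distal replicate 2 they were -2.87 and -2.26. No call is read from those fits, which set 1 distal array against the spread of the proximal pair.

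Of 9 fibroblast markers Dcn alone was listed, with 243 and 310 in distal matrix, against 984 and 1049 in proximal matrix, a log2 difference of -1.89 ± 0.43 (limma, adjusted p = 0.125). Leaving out distal replicate 1 gave -1.71 and leaving out distal replicate 2 gave -2.07. It is lower in the distal matrix together with the basal genes, and its part in their values was not tested. Of 16 endothelial, mural, immune, pigment and Schwann cell markers 0 were listed, so their levels were not analysed here. A sign of RNA length, the ratio between the Gapdh control probe sets near its 3' and 5' ends, was 9.40 and 6.73 in distal matrix, against 7.73 and 8.15 in proximal matrix. The same ratio of beta-actin was 0.52 and 0.59 in distal matrix, against 0.56 and 0.64 in proximal matrix. Their part in the results was not tested.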

How the data were processed

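The authors deposited linear intensity values of 4 arrays, already scaled; the sources used here do not give the method. The authors' deposited list gives, per the file headers, an unsigned ratio (fold) at a cut-off of 1.99 with distal as control, and log2 group values whose normalization is not given. It supplied all gene names: 1234 of 1435 probe sets had 1 symbol. Symbols were updated by gene identifier from RefSeq (GRCm38.p6).

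Values under 1 were set to 1 before taking log2. After removal of 64 control probe sets, 45037 were fitted with limma 3.58.1 in R 4.3.3 (eBayes with variance trend, Benjamini-Hochberg, two-sided). With 2 arrays per region precision is limited. On data simulated for these 45037 probe sets, 50 changes each of log2 size 1, 2, 3 and 4 were recovered at 0%, 12%, 34% and 74%, with 6 false calls. These changes were placed only in the brightest probe sets, and the simulated spread was set by intensity alone. Recovery in dimmer probe sets, or in those with a wider spread of their own such as Itgb4, was not simulated.

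The members and lists were chosen with earlier results of these data known. Genes named were the 4 members, all other listed genes of the basal, stem cell and junction lists, and the 3 nearest genes of each member; the listed suprabasal and fibroblast markers were added as checks, and listed neighbours of the members in gene order were chosen after their values were seen. 0 columns were left unmapped.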

Additional observations from a re-analysis of the deposited data

How the results depend on the processing

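The log2 differences of Krt15, 1600029D21Rik, Itgb4 and Plec1 kept their sign under every alternative run. Nothing is read from the kept sign, with the genes chosen on this contrast from the same arrays. With 1 array left out the differences ranged, in that order of genes, from -1.93 to -1.37, -2.19 to -0.46, -3.95 to -0.04 and -1.44 to -0.40. In the authors' deposited table the differences were -1.73, -1.72, -1.40 and -1.06. Scaling to hybridization controls moved Krt15 to -2.16 and the median of the 8 listed basal, stem cell and junction genes to -1.80, from -1.29 as deposited (range with 1 array left out -1.50 to -1.13), which is a shift shared by all probe sets. With values at or below the highest Bacillus control raised to it, 1600029D21Rik was at -1.10 and Itgb4 at -0.87, so the order of the 4 differences depends on values below background. Of Id2, Tnfrsf19, Bmpr1a and Dsg2, 0 passed in any fit. No listed gene of these lists had a second listed probe set, so averaging listed probe sets could not change anything. Any further probe sets of these genes outside the authors' list carry no gene name here and were not analysed.

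Over all 45037 probe sets limma called 30, and 9 with quantile normalization, 8 with median centring, 12 with hybridization control scaling, 17 with an offset of 16, 2 among the brighter probe sets, 0 without the variance trend (3010 had an unadjusted p under 0.05) and 4 to 899 with 1 array left out (899 and 635 without distal replicate 1 and 2, where the spread comes from the proximal pair alone). Krt2, Lor and Dcn passed in both of these last fits. The labels do not say whether same-numbered arrays belong together. Deviations of same-numbered arrays from their regional means correlated at -0.00723 across probe sets, which over 4 arrays cannot settle this. The fit with the replicate number as a block called 90. With that block Krt2 and Dcn passed (limma, adjusted p = 0.00169 and 0.0461). In the fit of all 4 arrays on the deposited scale without it they did not (limma, adjusted p = 0.0943 and 0.125). The causes of these changes were not tested.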

Other observations

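In the gene order of the RefSeq table (GRCm38.p6), Krt15 has 2 listed genes within 10 protein-coding genes on either side, both of them type I keratins. Krt17, a keratin of the nail bed and of stressed epidermis, is 5 places away and had intensities of 640 and 507 in distal matrix, against 1135 and 1146 in proximal matrix, lower in the distal matrix like Krt15. Krt42, a nail keratin 6 places away, had 8877 and 12310 in distal matrix, against 731 and 1415 in proximal matrix by its brighter probe set, the opposite order. Its other probe set had 1357 and 1771 in distal matrix, against 270 and 402 in proximal matrix. Among the neighbours of Itgb4, Unc13d was listed, with 58.4 and 81.2 in distal matrix, against 3.6 and 7.6 in proximal matrix. Its distal values were level with the highest Bacillus controls of those arrays (58.0 and 81.0), and its proximal values were below theirs (96.8 and 45.4). The listed neighbours of Plec1 were Fam83h and Nrbp2. Fam83h had 105 and 285 in distal matrix, against 72.3 and 202 in proximal matrix. Its groups overlapped, and the value of 72.3 was below the highest control of its array. Nrbp2 had 361 and 154 in distal matrix, against 472 and 626 in proximal matrix. 1600029D21Rik had no listed neighbour in this window.

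The deposited files gave the same sign for 1415 of the 1435 listed probe sets (98.6%), and their log2 differences correlated at 0.849 across these probe sets, which come from the same arrays. The median gap between the files was 0.44 on the log2 scale. Itgb4 differed by more than this, at -2.0 from the value table and -1.40 in the authors' deposited table, while Krt15 differed by less, at -1.65 and -1.73.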
